A study of Homo sapiens with 2 samples.

Results

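NRF2 (encoded by NFE2L2), its inhibitor KEAP1 and 7 antioxidant genes that NRF2 is known to activate (NQO1, HMOX1, GCLC, GCLM, TXNRD1, SRXN1 and OSGIN1) were followed in HepG2 cells depleted of the protease SPRTN. The 9 genes were picked by gene name, and each matched 1 of the 60448 genes in the deposited table. HepG2 is an immortal line from a human liver tumour and still makes many hepatocyte products. All cells received 40 nM of siRNA by lipid transfection for 24 h, either a negative control siRNA or an siRNA against SPRTN, and RNA was taken at 72 h. Each group has 1 library of polyadenylated RNA, and only 1 siRNA sequence against SPRTN was used, so no difference given here has a replicate check and no p-value was computed.

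NRF2 is a transcription factor that turns on genes against oxidants and electrophiles. In unstressed cells KEAP1, an adaptor of a CUL3 ubiquitin ligase, binds NRF2 and has it degraded. Electrophiles modify cysteines of KEAP1, NRF2 then builds up, pairs with a small MAF protein and binds antioxidant response elements near its targets. This control acts mostly on the NRF2 protein, which mRNA levels do not measure. In liver the pathway supports glutathione synthesis and the clearance of reactive drug metabolites.

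The antioxidant response element has the core TGACNNNGC, and a longer form has an A after it. RefSeq promoter windows (GRCh38.p14) of 300 bases, from 250 bases before to 50 after an annotated transcript start, were searched on both strands. Of the 9 genes 8 matched a window, and HMOX1 did not. The longer form was found in windows of 3 of these 8 genes, GCLM, TXNRD1 and KEAP1, and the same 3 genes held the core. All 3 carry it on the opposite strand, so the gene's own strand reads TGCNNNGTCA. These stretches of 40 bases are shown because they are the sequence feature that members share, with the 10-base match in capitals and each read 5′ to 3′ along the gene:
GCLM: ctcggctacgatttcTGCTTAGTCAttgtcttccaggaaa
TXNRD1: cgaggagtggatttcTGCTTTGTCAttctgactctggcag
KEAP1: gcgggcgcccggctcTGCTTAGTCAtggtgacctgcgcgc

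The GCLM stretch lies at chr1:93909441-93909480 on the minus strand, with the match at bases -35 to -26 from the transcript start. The TXNRD1 stretch lies at chr12:104286914-104286953 on the plus strand, in the second of the gene's 2 windows, with the match at -103 to -94. The KEAP1 stretch lies at chr19:10502779-10502818 on the minus strand, also in a second window, with the match at -32 to -23. Both the TXNRD1 and the KEAP1 stretch lie inside the annotated spans of their genes given below, so they precede an internal transcript start and not the outermost one. GCLM and KEAP1 are identical over all 10 matched bases, and over a run of 13 bases in all, while TXNRD1 differs from each of them at 1 of the 10. Among all 27305 genes with a window, 3.94% held the longer form and 16.1% the core. A match is a description of these letters and not evidence of binding, and nothing follows for the genes without one.

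As recovered from the values, the library depth used for scaling was about 96400000 reads with the control siRNA and about 67100000 with the SPRTN siRNA. SPRTN stood at 7.81 FPKM (a level per kilobase of transcript and library depth) with the control siRNA and 2.07 FPKM with its own siRNA, 26.5% of the control level. The 8 hepatocyte markers were all above 1 FPKM, with a summed level of 30422 FPKM (control) and 40796 FPKM (SPRTN siRNA). Of these, HNF4A (168 to 151 FPKM) and APOB (1232 to 1212 FPKM) were lower with the SPRTN siRNA, and all others were higher. The 4 endothelial, 4 fibroblast and 4 blood markers were each below 9 FPKM in both libraries, with HBB, PTPRC and COL3A1 at 0 in both. Endothelial markers summed to 3.07 FPKM (control) and 6.04 FPKM (SPRTN siRNA), with CDH5 going from 0.439 to 2.74 FPKM. Fibroblast markers summed to 9.96 and 9.52 FPKM, and blood markers to 0.0567 and 0.0684 FPKM. Biliary markers summed to 477 and 556 FPKM, as KRT19, SOX9 and EPCAM were expressed in this line and KRT7 was near 0. The nuclear long RNA MALAT1 went from 43.2 to 110.2 FPKM and NEAT1 from 29.3 to 74.5 FPKM. Mitochondrial transcripts took 8.70% of reads in the control and 11.5% in the SPRTN siRNA library. What part these shifts have in the values below was not tested. In bulk RNA, fewer cells of a type and less RNA per cell cannot be told apart.

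NFE2L2 mRNA was higher after SPRTN depletion and KEAP1 mRNA was nearly level. Of the 7 target genes, OSGIN1 was higher by about as much as NFE2L2, GCLM, HMOX1 and TXNRD1 were higher by less, NQO1 and SRXN1 were nearly level, and GCLC was lower. Each ratio carries an exact 95% interval (Clopper-Pearson, from how a gene's recovered reads divide between the libraries), which covers counting error only.

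**Figure D1:**
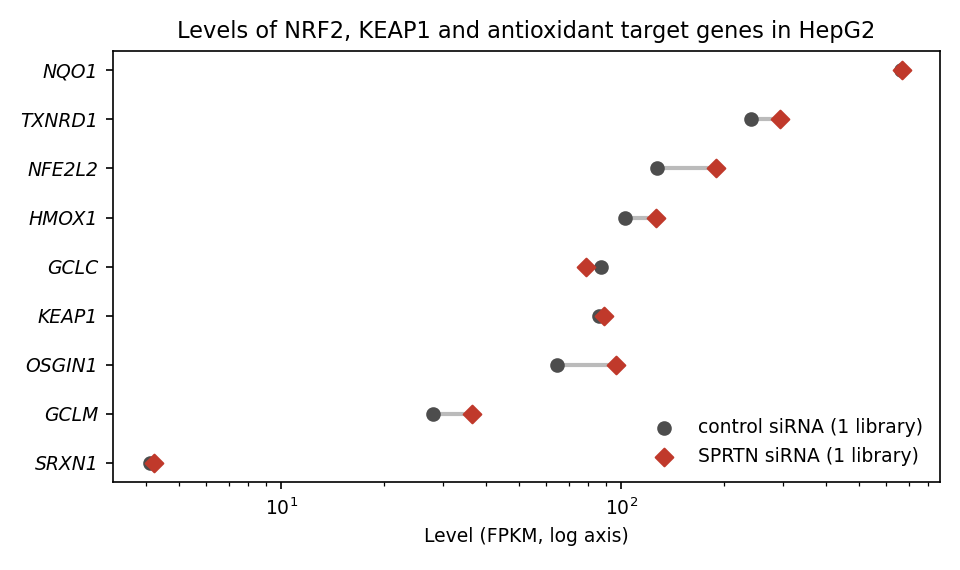
Level of each gene in the control siRNA library (grey circle) and the SPRTN siRNA library (red diamond), in FPKM on a log axis, 1 library per group and no error shown. NQO1 is highest at 664 and 671 FPKM and SRXN1 lowest at 4.12 and 4.23 FPKM, and the widest gaps are those of NFE2L2 and OSGIN1.

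NFE2L2 (ENSG00000116044) lies on chromosome 2 from 177227595 to 177392697 on the minus strand of GRCh38. Its level was 127 FPKM with the control siRNA and 190 FPKM with the SPRTN siRNA (16679 and 17271 reads). That is 1.49-fold higher (1.46 to 1.52), with a difference of 0.57 in log2(FPKM + 1). Among 13203 genes with a mean of at least 1 FPKM, called measured here, 94.6% had a smaller log2 difference. KEAP1 (ENSG00000079999; chromosome 19, 10486120 to 10503741, minus strand) stood at 86.3 FPKM with the control siRNA and 88.7 FPKM with the SPRTN siRNA. Its ratio was 1.03-fold with an interval of 0.998 to 1.06, which includes equality. The NFE2L2 level was 1.48 times that of KEAP1 in the control and 2.14 times in the SPRTN siRNA library, a 1.45-fold wider ratio (1.39 to 1.50 from the reads).

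The siRNA itself can lower transcripts whose 3' UTR pairs with the seed of its guide strand, so the members were searched for such sites. The guide strand, derived as the reverse complement of the sense strand given in the design text, is shown with its seed, bases 2 to 8, in capitals, beside the site found in NFE2L2 with the 7 paired bases in capitals:
siRNA guide: uUAACCAGaacuuccugac
NFE2L2 site: ggtcatgaCTGGTTAgtaagtag

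NFE2L2 was the only member with the 7-base site CTGGTTA in an annotated 3' UTR of a protein-coding transcript. The site lies at chr2:177232700-177232706 on the minus strand (GRCh38, GENCODE release 29), in the 3' UTR of 1 of the 6 protein-coding NFE2L2 transcripts that have one. No other of the 14 annotated NFE2L2 transcripts holds it in an exon. Of 11134 measured genes with a 3' UTR, 10.5% held the site, and their median log2 difference was -0.23, against -0.05 for genes without it. The other 8 members hold no such site in the 3' UTRs searched. What part the site has in the difference of any member was not tested.

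Glutamate-cysteine ligase makes the first and rate-limiting step of glutathione synthesis, with GCLC as its catalytic and GCLM as its modifier subunit. GCLC (ENSG00000001084; chromosome 6, 53497341 to 53616970, minus strand) went from 87.5 FPKM with the control siRNA to 79.0 FPKM with the SPRTN siRNA. It was 1.11-fold lower (1.08 to 1.14), the only member below its control level. GCLM (ENSG00000023909; chromosome 1, 93885205 to 93909456, minus strand) went from 27.9 to 36.4 FPKM, 1.30-fold higher (1.26 to 1.35), from 6107 and 5539 reads. The 2 subunits therefore differed in opposite directions. The GCLM level was 0.319 of the GCLC level in the control and 0.461 in the SPRTN siRNA library, a 1.44-fold change of the ratio (1.38 to 1.51).

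TXNRD1, the cytosolic selenoenzyme that reduces thioredoxin with NADPH, and SRXN1, which repairs overoxidised peroxiredoxins, belong to the thiol arm of the response. TXNRD1 (ENSG00000198431; chromosome 12, 104215779 to 104350305, plus strand) stood at 241 FPKM with the control siRNA and 293 FPKM with the SPRTN siRNA, 1.21-fold higher (1.20 to 1.23). SRXN1 (ENSG00000271303; chromosome 20, 646615 to 653370, minus strand) was at 4.12 and 4.23 FPKM, from 1072 and 766 reads. Its ratio of 1.03 had the widest interval of the 9 genes, 0.935 to 1.13, and no difference from equality was detectable at this depth.

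NQO1 reduces quinones by 2 electrons and is the usual reporter gene of NRF2 activity. It was the most abundant member (ENSG00000181019; chromosome 16, 69706996 to 69726951, minus strand), with 664 FPKM with the control siRNA and 671 FPKM with the SPRTN siRNA. Its ratio was 1.01-fold (0.9998 to 1.02), and its 89356 and 62775 reads give the narrowest interval of the 9. HMOX1, which breaks haem down to biliverdin, iron and carbon monoxide (ENSG00000100292; chromosome 22, 35380361 to 35394214, plus strand), went from 103 to 126 FPKM, 1.23-fold higher (1.20 to 1.27). OSGIN1, an oxidative stress induced growth inhibitor (ENSG00000140961; chromosome 16, 83948282 to 83966332, plus strand), went from 64.8 to 96.4 FPKM. It was 1.49-fold higher (1.44 to 1.53), and 94.5% of measured genes had a smaller log2 difference. The HMOX1 level relative to that of NQO1 was 1.22-fold higher in the SPRTN siRNA library (1.18 to 1.26).

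**Figure D2:**
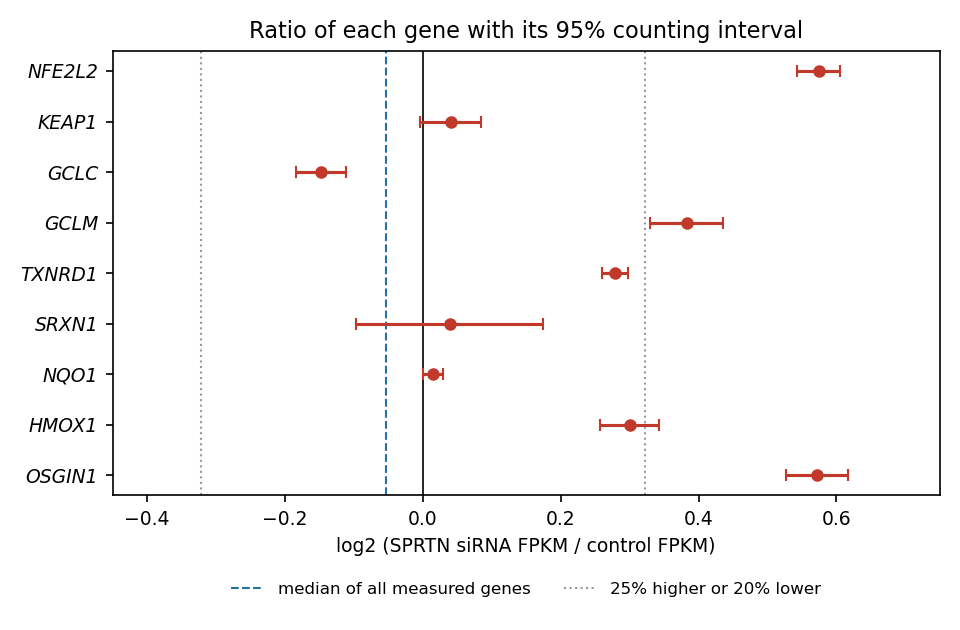
Log2 ratio of SPRTN siRNA FPKM to control FPKM for each gene (point) with its 95% counting interval (bar); the dashed line is the median of all measured genes in log2(FPKM + 1), -0.05, and dotted lines mark 25% higher and 20% lower. NFE2L2, OSGIN1 and GCLM lie wholly above the line for 25% higher, HMOX1 spans it, and the bars of KEAP1, SRXN1 and NQO1 include 0.

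A size rule was used in which FPKM + 1 had to be at least 25% above the control, or below it by the same factor (20% less). By this rule 3 of the 9 genes were higher (NFE2L2, OSGIN1 and GCLM) and 0 lower, where 13.8% of measured genes were higher and 19.1% lower. At 2-fold no member was higher or lower, against 1.51% and 0.788% of measured genes. Just under the 25% rule came HMOX1 at a log2 difference of 0.30 and TXNRD1 at 0.28, and just over it GCLM at 0.37. Centring on the median gene or scaling by the median of ratios adds 0.05 to 0.06 to the log2 differences. That brings HMOX1 and TXNRD1 past the rule (5 of 9) and brings GCLC to -0.09. Scaling by the median of ratios brings KEAP1 to 0.10 and NQO1 to 0.07, above the counting intervals of their unscaled ratios. Whether these 2 intervals include equality therefore depends on the scaling. The median log2 difference of the 9 members was 0.28 (0.16 without NFE2L2), and that of all measured genes -0.05. Above 0 were 8 of the 9, compared with 43.4% of measured genes. KEAP1, SRXN1 and NQO1 were among these 8 with values within 0.1 of 0.

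The counting interval lay above equality for 5 members and below it for 1. In libraries this deep the same held for 31.5% and 44.3% of measured genes with a length, so an interval that leaves out equality is common. All members but SRXN1 had a mean of at least 30 FPKM. Among the 4073 genes at that level, 10.1% were higher by the 25% rule and 17.2% lower by its inverse, and the log2 differences of NFE2L2 and OSGIN1 exceeded those of 97.0% of them. That of GCLM exceeded 92.0%, that of HMOX1 88.5%, that of TXNRD1 87.2%, and that of GCLC 37.0%.

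**Figure D3:**
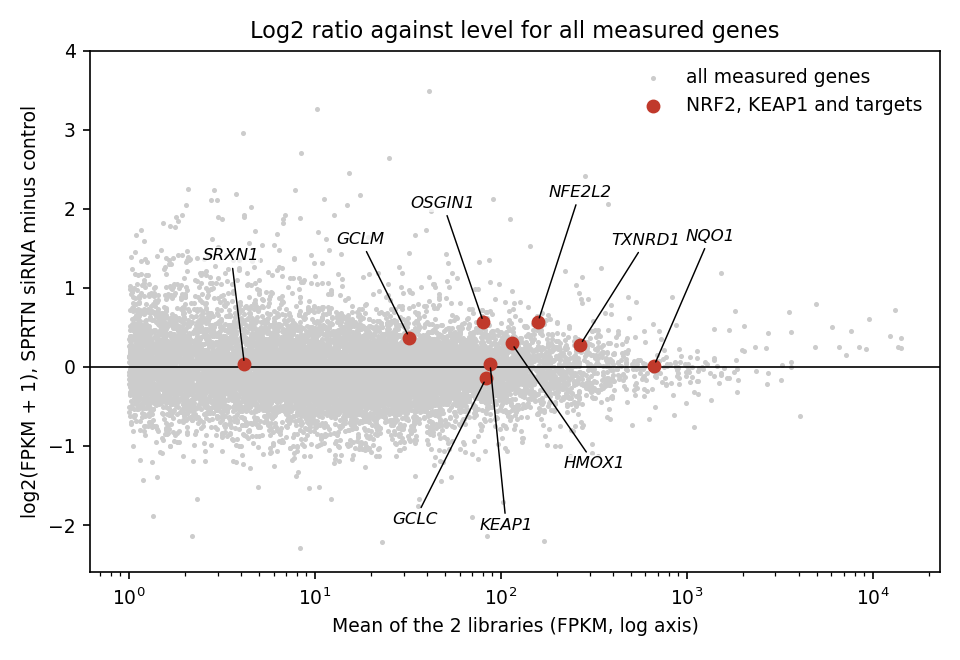
Difference in log2(FPKM + 1), SPRTN siRNA minus control, against the mean FPKM of the 2 libraries (log axis) for 13203 measured genes (grey) and the 9 members (red). The members lie inside the cloud of all genes, with NFE2L2 (0.57) and OSGIN1 (0.56) toward its upper edge at their level.

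In both libraries NQO1 was highest per kilobase, followed by TXNRD1, NFE2L2 and HMOX1, with GCLM and SRXN1 lowest. In the control library GCLC (87.5 FPKM, counting interval 86.1 to 88.8) and KEAP1 (86.3 FPKM, 84.6 to 88.0) came next and were not separated by counting error, and OSGIN1 followed at 64.8 FPKM. In the SPRTN siRNA library OSGIN1 was above both, and the order of these 3 was OSGIN1 (96.4 FPKM), KEAP1 (88.7 FPKM) and GCLC (79.0 FPKM), with no overlap of counting intervals. Orders and level ratios between genes also rest on the mean length of annotated transcripts, which counting intervals do not cover. By reads in that library, GCLC (9866) was above OSGIN1 (8247) and KEAP1 (7116).

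Several members share their locus with other genes, and whether counting used strand was not stated in the sources used here. The longest annotated NFE2L2 form overlaps AGPS on the opposite strand, which went from 46.2 to 38.6 FPKM, the other way from NFE2L2. The processed pseudogene RPL18AP3 lies within TXNRD1 on the same strand, at 88.7 FPKM (control) and 94.1 FPKM (SPRTN siRNA). The other overlapping genes stood at or below 2.59 FPKM in both libraries. How reads were shared between overlapping genes was not tested.

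In the authors' deposited table, 0 of the 9 members are called, where 3132 of 25035 genes with an adjusted p are called (12.5%), each of them with a difference of 1 or more on the log2 scale. Those 25035 genes include many below the mean of 1 FPKM that all members pass. Among the 13203 measured genes, 1.51% were 2-fold higher and 0.788% 2-fold lower in FPKM + 1. The authors' deposited table gives NFE2L2 a log2 fold change of 0.57 with an adjusted p of 1.18e-297. KEAP1 has in the authors' deposited table a log2 fold change of 0.04 with a p of 0.0646 and an adjusted p of 0.0293, which is lower than the p itself. The authors' deposited table shows an adjusted p below the unadjusted one for 18203 of the 25035 genes, which a Benjamini-Hochberg adjustment cannot give. The method of adjustment was not given in the sources used here. By unadjusted p, 6 of the 9 members lie below 0.05 in the authors' deposited table, all but KEAP1 (0.0646), NQO1 (0.0510) and SRXN1 (0.563), beside 58.6% of those genes. By adjusted p, 8 of the 9 do in the authors' deposited table, all but SRXN1, beside 65.8%. That test compares 1 library with 1 library, so it does not include the spread between cultures.

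The wider pathway was read from 7 lists of 84 genes that hold no member, of which 80 were measured. The lists were chosen with earlier results of these data known, so their shares are descriptive and not independent support. Of these 80, 57 had a log2 difference above 0 and 23 below, with a median of 0.14, and by the same size rule 19 were higher and 7 lower. That is 71.3% above 0, beside 43.4% of all measured genes. By the size rule 23.8% of the 80 were higher, beside 13.8% of all measured genes, and 8.75% lower, beside 19.1%. A site for the guide seed was held by 6 of the 80. Of these, CUL3 (-0.41), AKR1C2 (-0.28), UGDH (-0.98) and SOD2 (-0.52) were below 0. The carriers AKR1C1 (0.38) and GSTM4 (0.12) were above 0. What part the site has in these differences was not tested.

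**Figure D4:**
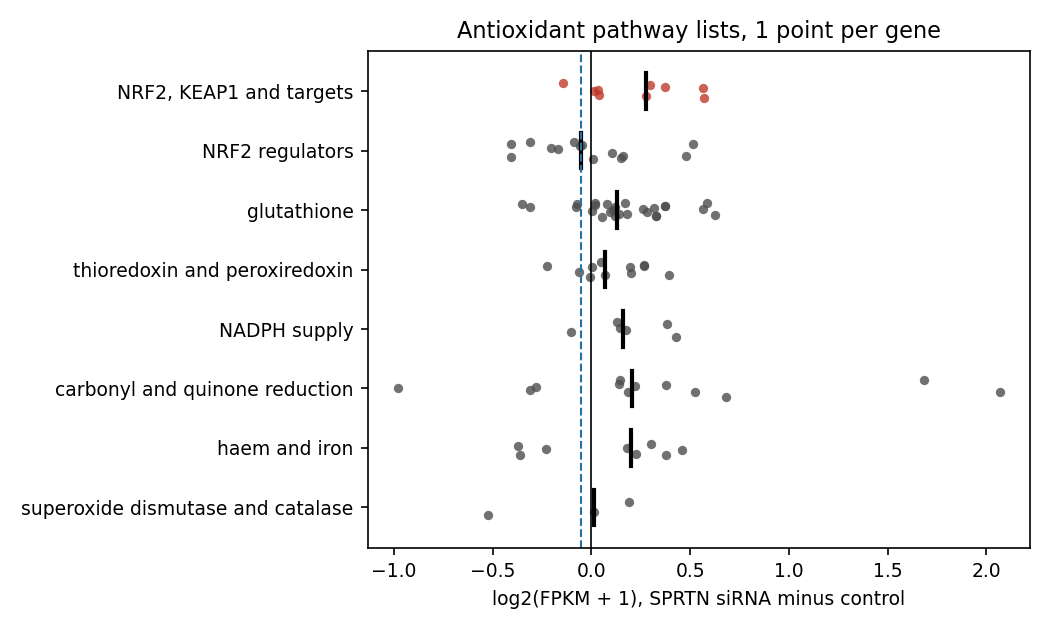
Difference in log2(FPKM + 1), SPRTN siRNA minus control, for the 9 members (red) and the measured genes of 7 antioxidant lists (grey), 1 point per gene, with the median of each list as a black bar and that of all measured genes as a dashed line. The medians of the 7 lists run from -0.05 for NRF2 regulators to 0.21 for carbonyl and quinone reduction. In that list AKR1B10 (2.07) and ALDH3A1 (1.69) lie farthest right. The black bar of the members stands at 0.28.

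Among 14 regulators and partners of NRF2, 6 were above 0 and 8 below, with a median of -0.05 (0.01 among those with a mean of at least 30 FPKM). By the size rule 2 were higher (14.3%, beside 13.8% of all measured genes) and 2 lower (14.3%, beside 19.1%). SQSTM1, the autophagy receptor p62 that can take KEAP1 away from NRF2, went from 191 to 274 FPKM (1.43-fold higher, 1.40 to 1.46). MAFK, a small MAF partner, went from 14.5 to 20.6 FPKM (1.42-fold), and its relative MAFG from 30.9 to 34.6 FPKM (1.12-fold). CUL3, the scaffold of the ligase that KEAP1 serves, went the other way, from 40.8 to 30.5 FPKM (1.34-fold lower, 1.29 to 1.39), and it holds the guide seed site in its 3' UTR. PGAM5, a mitochondrial phosphatase that binds KEAP1, went from 64.6 to 48.5 FPKM (1.33-fold lower).

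Glutathione genes were mostly a little higher, with 22 of 26 measured above 0 and a median of 0.13 (0.26 among those with a mean of at least 30 FPKM). GPX2, a glutathione peroxidase of epithelia, went from 384 to 592 FPKM (1.54-fold higher, 1.52 to 1.57). ABCC2, the canalicular exporter of glutathione conjugates, went from 250.4 to 376 FPKM (1.50-fold), and the glutaredoxin gene GLRX2 from 12.3 to 18.7 FPKM (1.52-fold). OPLAH, which returns oxoproline to glutamate, was 1.28-fold lower (39.0 to 30.4 FPKM) and the exporter gene ABCC4 1.27-fold lower (10.5 to 8.27 FPKM). By the size rule 7 genes of this list were higher (26.9%, beside 13.8% of all measured genes) and 1 lower (3.85%, beside 19.1%).

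Of the 11 thioredoxin and peroxiredoxin genes 8 were above 0, with a median of 0.07 (0.13 with the libraries scaled by the median of ratios). By the size rule 0 were lower, beside 19.1% of all measured genes, and 1 was higher (9.09%, beside 13.8%). That was TXN, thioredoxin itself and the substrate of TXNRD1, which went from 294 to 386 FPKM (1.31-fold higher, 1.29 to 1.34). TXNIP, which binds and inhibits thioredoxin, went from 66.1 to 79.8 FPKM (1.21-fold), and the peroxiredoxin gene PRDX5 from 173 to 208 FPKM (1.20-fold). The mitochondrial PRDX3 was 1.17-fold lower (184 to 157 FPKM), and TXNRD3 stood at 7.06 and 6.72 FPKM with an interval of the ratio that includes equality (0.868 to 1.04).

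NADPH, the reductant that NQO1, TXNRD1 and glutathione reductase use, is supplied by enzymes of which 5 of 6 measured were above 0, with a median of 0.16. PGLS of the pentose phosphate pathway went from 21.7 to 29.5 FPKM (1.36-fold higher, 1.28 to 1.45) and IDH1 from 456 to 594 FPKM (1.30-fold). TALDO1, also of the pentose phosphate pathway, was 1.09-fold higher (233 to 255 FPKM) and TKT 1.07-fold lower (282 to 263 FPKM). The 2 genes past the size rule were PGLS and IDH1, both higher (33.3% of the 6, beside 13.8% of all measured genes). In this list 0 were lower, beside 19.1%.

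Genes of carbonyl and quinone reduction spread most widely, with 9 of 12 measured above 0 and a median of 0.21. By the size rule 5 were higher (41.7%, beside 13.8% of all measured genes) and 1 lower (8.33%, beside 19.1%). AKR1B10, an aldo-keto reductase that NRF2 is known to control in human cells, went from 145 to 611 FPKM (4.21-fold higher, 4.13 to 4.30). ALDH3A1, an aldehyde dehydrogenase also known as a target of the aryl hydrocarbon receptor, went from 2.44 to 10.1 FPKM (4.13-fold, 3.58 to 4.77), and the carbonyl reductase gene CBR1 from 18.6 to 30.4 FPKM (1.63-fold). UGDH, which makes UDP-glucuronate, went from 410 to 207 FPKM (1.98-fold lower, 1.94 to 2.01) and holds the guide seed site, and PTGR1 was 1.24-fold lower (47.4 to 38.0 FPKM). AKR1B10 and its family have near-identical copies, and how the authors' counting split such reads was not given in the sources used here.

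In the haem and iron list 5 of 8 genes were above 0, with a median of 0.20 (-0.07 among those with a mean of at least 30 FPKM). By the size rule 2 were higher (25%, beside 13.8% of all measured genes) and 2 lower (25%, beside 19.1%). The 2 ferritin chains went in opposite directions. FTL, the light chain, went from 6484 to 8900 FPKM (1.37-fold higher, 1.37 to 1.38), and FTH1, the heavy chain, from 951 to 741 FPKM (1.28-fold lower, 1.27 to 1.30). ABCB6, a porphyrin transporter, was at 3.01 and 4.21 FPKM (1.40-fold higher, 1.20 to 1.62) and the haem transporter gene SLC48A1 at 12.6 and 15.7 FPKM (a log2 difference of 0.30). BLVRA, the biliverdin reductase that acts after HMOX1, went from 63.1 to 48.5 FPKM (1.30-fold lower). Both ferritin chains have many processed pseudogenes, so their values are less certain.

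Of the superoxide dismutases and catalase, SOD2, the mitochondrial enzyme, went from 138 to 95.9 FPKM (1.44-fold lower, 1.41 to 1.47) and holds the guide seed site. Catalase (CAT) stood at 73.5 and 74.2 FPKM, with an interval that includes equality (0.976 to 1.04). The cytosolic SOD1 went from 163 to 186 FPKM (1.14-fold higher, 1.12 to 1.17).

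Across measured genes with a promoter window, the median log2 difference was -0.03 for the 378 genes with the longer response element. It was -0.06 for all 1770 genes with the core, which include those 378, and -0.07 for the 7117 genes without the core. The standard deviation of the log2 difference over all measured genes was 0.39. What part the element has in these medians was not tested. Of the 3 members with the longer form, GCLM and TXNRD1 were higher and KEAP1 was nearly level. NFE2L2 and OSGIN1, the 2 members with the largest differences, held neither form in these windows.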

How the data were processed

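HepG2 RNA was sequenced from 1 control siRNA and 1 SPRTN siRNA library. The authors deposited FPKM per gene and, in a second table, length-scaled coverage (a signal not corrected for depth), a log2 fold change, and p-values from a test not described in the sources used here. Per the submitters' processing notes, GRCh38.p13 was the build and edgeR had some role that is not stated. The first table is titled as row means without saying of what. Column names are short: the column starting with si was taken as the SPRTN siRNA library and K0 as the control.

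FPKM were compared as log2(FPKM + 1) among genes with a mean of at least 1 FPKM. This understates changes of low genes, and folds printed with intervals are plain FPKM ratios. Reads were recovered as FPKM times mean transcript length in GENCODE release 29, in units of the smallest common step. Up to 20 reads, 93.9% of control and 93.4% of SPRTN siRNA values lay within 0.05 of a whole number (84.7% and 83.9% for genes with several transcripts). Intervals are exact: Clopper-Pearson for a gene, conditional odds ratio for 2 genes, Poisson for a level. PCR copies are not independent molecules. The plan's scaling for counts (TMM) was not used, since the values are FPKM.

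The members, lists and motifs were chosen with earlier results of these data known. Named list genes are the 3 highest and 2 lowest of each list, and the carriers of the guide seed site. A gene that this rule takes is not reported here but stays in all counts and medians. With 2 libraries no gene was named for likeness of pattern. The functions were tested on simulated data. Python 3.11.15, numpy 2.4.6, pandas 2.3.3 and scipy 1.17.1 were used.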

Additional observations from a re-analysis of the deposited data

How the results depend on the processing

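Each of the 9 genes kept its direction under all alternatives that gave it a value, 70 values in all, and 56 of these lay inside the gene's own counting interval. This was largely fixed in advance: filters leave a gene's value as it is, a pseudocount cannot change its sign, and recovered reads come from the same FPKM. The 2 scalings below both move values upward, so only GCLC could have changed direction by them. All values outside the intervals came from these 2 scalings. Scaling by the median of ratios shifts the libraries by 0.06 on the log2 scale and centring on the median gene by 0.05. Under each of these 2 scalings 5 members were at least 25% higher, HMOX1 and TXNRD1 being added, and the median of the members was 0.34 and 0.33. The median was 0.16 without NFE2L2, the member with a guide seed site (in 1 annotated transcript), because it then falls between TXNRD1 and KEAP1. Other pseudocounts, filters and recovered reads left 3 members past the 25% rule. No alternative took a member 20% below the control or past 2-fold. A minimum of 30 FPKM, chosen after seeing the data, left out SRXN1 and took the median of the haem and iron list from 0.20 to -0.07. The median of the NRF2 regulators ranged from -0.06 to 0.01. No paired analysis was possible because each group has 1 library, and for the same reason no library could be left out. Depth limits SRXN1 most, and the spread between cultures is unknown for every gene.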
